A study of Mus musculus with 35 samples.

Results

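The microglial ion channels described here are 10 protein-coding genes taken by name from the 55401 genes of the mRNA count table. They comprise 5 potassium channel pore subunits (Kcnk13, Kcnk6, Kcnj2, Kcna3 and Kcnn4), the proton channel Hvcn1, the transient receptor potential (TRP) cation channels Trpv2 and Trpm2, and the chloride or anion channel proteins Clic1 and Lrrc8a. Each was followed over 34 wild-type C57BL/6 mice in CD45+ve microglia, which the study isolated from dissociated whole brain on dishes coated with an antibody against CD45. The ages were postnatal day 6 (P6, 4 females and 6 males), postnatal day 15 (P15, 6 females and 6 males) and 8 weeks (6 females and 6 males), with 1 library per mouse and no further treatment. The study removed 1 mouse as an outlier in multidimensional scaling without naming it in its methods. Here P6 female 6 was left out, whose microglial markers summed to 3259 CPM (counts scaled to a fixed library total) against at least 7319 CPM in the other P6 mice. The antibody binds every CD45-bearing cell, so that leukocytes other than microglia can be retained on the dish.

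Potassium channels that are open at rest hold a microglial cell at a negative membrane potential, and this potential in turn drives calcium entry and supports the movement of the fine processes that survey the tissue. Proton and anion channels balance the charge and volume changes that accompany the oxidative burst and swelling. TRP channels admit calcium and sodium in response to lipids, heat, membrane stretch or oxidative signals.

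In these libraries 8 of the 10 channel genes were higher at 8 weeks than at P6, against 37.8% of all genes tested, and the time at which they rose differed between genes. Trpm2 rose in both intervals. Kcnk13, Kcnk6, Kcnn4 and Lrrc8a rose by P15 and did not rise further, while Kcnj2 rose between P15 and 8 weeks. Kcna3 passed no test, and Clic1 was slightly lower at 8 weeks than at P6.

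Sequence immediately upstream of the RefSeq start was available for 8 of the 10 genes from RefSeq (GRCm38.p6), and 4 windows of 250 bases are printed because they belong to genes with different time courses: Kcnk13, which rose by P15, Kcnj2, which rose later, and Trpm2 and Trpv2, which rose in both intervals. None of these 4 windows overlaps a GENCODE exon. The RefSeq start of Trpm2 lies inside the GENCODE interval of the gene given further on, and so does its window. Kcnk13 lies at chr12:99964249-99964498 on the plus strand, Trpv2 at chr11:62574236-62574485 on the plus strand, Kcnj2 at chr11:111065914-111066163 on the plus strand and Trpm2 at chr10:77969873-77970122 on the minus strand. Each is written 5′ to 3′ on the strand of its gene, and capitals mark GAGGAA or its reverse complement, the core bound by PU.1, the ETS factor that defines myeloid cells.
Kcnk13: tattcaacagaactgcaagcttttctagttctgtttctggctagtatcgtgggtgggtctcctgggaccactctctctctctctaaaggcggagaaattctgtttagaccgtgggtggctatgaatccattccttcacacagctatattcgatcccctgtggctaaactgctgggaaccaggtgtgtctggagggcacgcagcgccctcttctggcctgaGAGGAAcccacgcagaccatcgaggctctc
Trpv2: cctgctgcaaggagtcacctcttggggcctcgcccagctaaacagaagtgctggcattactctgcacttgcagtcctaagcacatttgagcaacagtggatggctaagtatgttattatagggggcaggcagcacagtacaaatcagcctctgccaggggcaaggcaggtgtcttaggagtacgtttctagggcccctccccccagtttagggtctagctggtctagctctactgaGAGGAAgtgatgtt
Kcnj2: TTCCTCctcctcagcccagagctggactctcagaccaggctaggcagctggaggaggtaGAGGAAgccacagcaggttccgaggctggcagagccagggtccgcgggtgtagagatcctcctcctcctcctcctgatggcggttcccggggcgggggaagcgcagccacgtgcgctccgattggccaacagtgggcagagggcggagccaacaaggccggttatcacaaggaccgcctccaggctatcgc
Trpm2: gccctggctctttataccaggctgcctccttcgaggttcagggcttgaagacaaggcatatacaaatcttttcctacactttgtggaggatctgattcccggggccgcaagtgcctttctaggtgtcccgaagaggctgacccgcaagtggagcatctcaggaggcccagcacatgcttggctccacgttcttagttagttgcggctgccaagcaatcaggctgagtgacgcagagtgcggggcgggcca

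The GAGGAA core on either strand was found upstream of 5 of the 8 genes (Kcnk13, Kcnj2, Kcna3, Trpv2 and Clic1), against 25.9% of 27025 genes whose windows of the same length were searched. It lay 30 to 25 bases before the start in Kcnk13 and 14 to 9 bases before the start in Trpv2, whose first of 3 windows is the one printed. The printed Trpm2 window holds no copy. Of the other letters searched on both strands, the GC box GGGCGG was found upstream of 6 genes against 35.4%, and the E-box CACGTG upstream of 3 genes against 6.86%. The AP-1 core TGANTCA (Clic1) and the TATA box TATAAA (Trpm2) were each found upstream of 1 gene, against 7.82% and 14.3%. The paired core of interferon regulatory factors was found upstream of 0 of 8, against 3.46%. These are matches of letters, and no binding was measured.

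Libraries held from 23316107 to 38965078 gene-assigned fragments, and levels are given as CPM with TMM scaling (trimmed mean of M-values). Scaling by library size alone moved the median log2 change of all genes from -0.01 to -0.14 between P6 and P15 and from 0.04 to -0.10 between P6 and 8 weeks. The markers of the named cell type were present, since 6 genes that mark microglia, such as Fcrls, Sall1 and Tmem119, summed to between 7319 and 13263 CPM at P6, between 14658 and 29990 CPM at P15 and between 20076 and 28467 CPM at 8 weeks. All 6 were higher at P15 than at P6, with a median log2 fold change (log2FC) of 1.17, and all 6 were higher at 8 weeks than at P6, with a median of 1.42. Spi1, which encodes PU.1, had mean levels of 337, 326 and 347 CPM at the 3 ages and passed no test between them. Summed levels of 8 neural progenitor and immature neuron markers ran from 656 to 2023 CPM at P6, from 118 to 839 CPM at P15 and from 87.2 to 203 CPM at 8 weeks, and all 8 markers were lower at each later age. Of 9 markers of monocytes and border macrophages, 2 were higher and 4 lower at 8 weeks than at P6, with sums from 723 to 1576 CPM at P6, from 289 to 1030 CPM at P15 and from 365 to 718 CPM at 8 weeks. In bulk libraries fewer cells of a type and less RNA per cell cannot be told apart, and the part of these shifts in the changes of the channel genes was not tested. P15 male 1 and 8-week male 4 stood apart in how long genes compared with short ones. Across 8065 protein-coding genes their median deviation from their group was lower in genes with at least 7561 exon bases than in genes with at most 3250, by 0.66 and 0.65 on the log2 scale, while this difference lay between -0.26 and 0.37 in the other 32 mice. Ptprc, which encodes CD45, was lowest of its age in both, at 30.1 CPM and 146 CPM. By root mean square deviation from the group on the log2 scale, P15 male 1 was at 0.748, P15 male 6 at 0.510 and 8-week male 4 at 0.508.

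**Figure D1:**
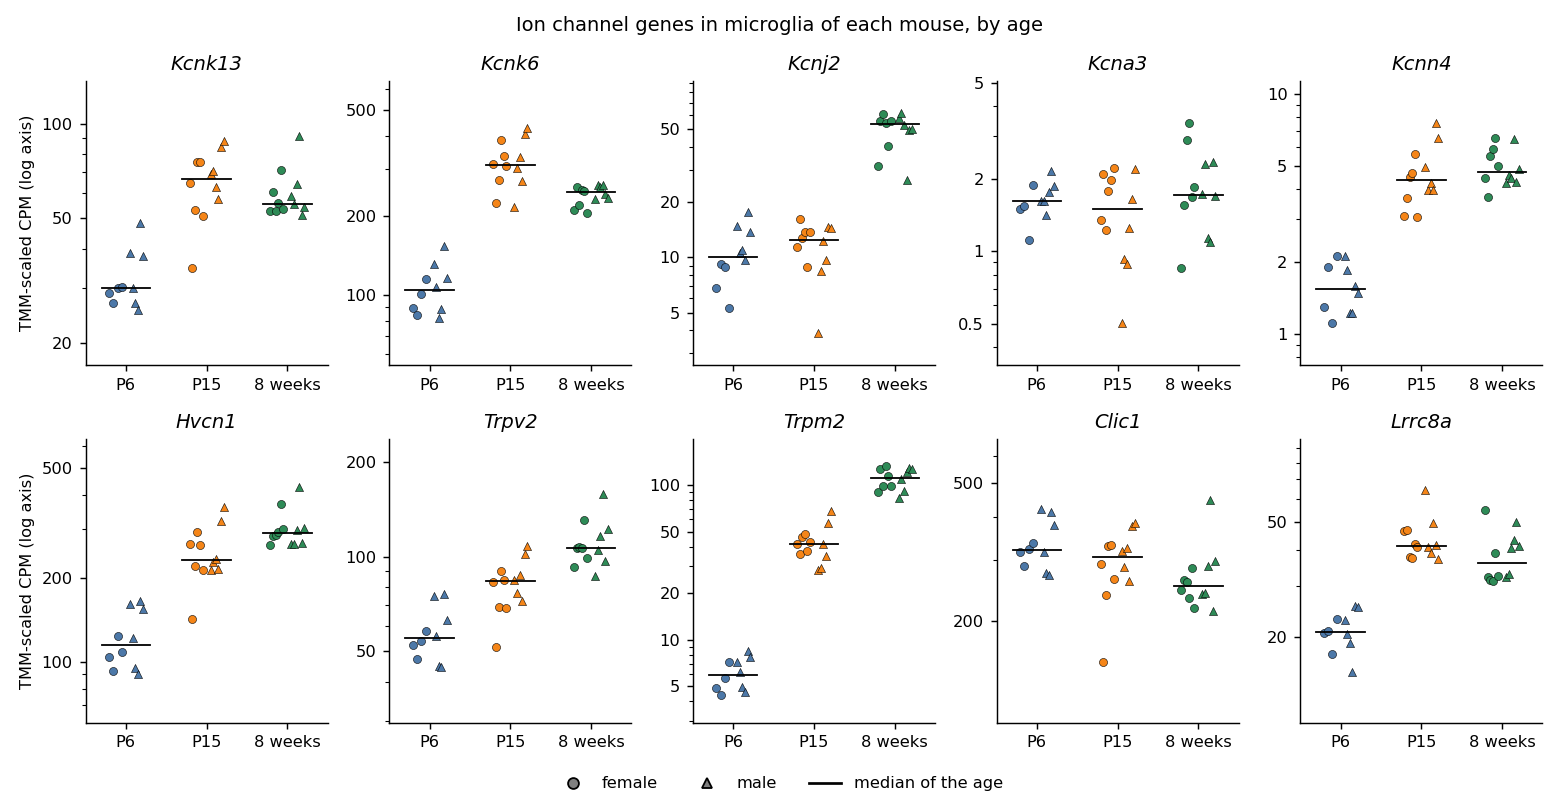
TMM-scaled CPM of the 10 ion channel genes in each of 34 mice, on log axes that differ between panels. Circles are females, triangles are males and black lines are medians of the age. The 12 mice at 8 weeks lie above all 10 mice at P6 for 8 genes, and for Kcnj2 and Trpm2 they also lie above all 12 mice at P15.

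From P6 to P15, 7 of the 10 channel genes were higher (edgeR quasi-likelihood test, adjusted p below 0.05 over 17612 genes), against 30.4% of all genes tested. None of the 10 was lower in that test, at an unadjusted p below 0.05, in limma-voom or in DESeq2, against 31.4% of all genes. Past the study's 2-fold threshold were 3 (Kcnk6, Kcnn4 and Trpm2), against 4.87%. Each of the 12 mice at P15 lay above each of the 10 at P6 for 4 genes (Kcnk6, Kcnn4, Trpm2 and Lrrc8a), against 5.26%. From P15 to 8 weeks, 4 genes were higher against 24.0% of all genes, and 1 was lower against 23.9%. Those past 2-fold, Kcnj2 and Trpm2, were 2 against 1.20%, and the same 2 genes had ranges that did not overlap, against 1.64%. From P6 to 8 weeks, 8 were higher against 37.8%, 1 was lower against 36.6%, and 4 passed 2-fold (Kcnj2, Kcnn4, Hvcn1 and Trpm2) against 11.5%. For 8 genes the ranges of P6 and 8 weeks did not overlap, against 14.8%. The median log2FC of the 10 genes was 1.05 from P6 to P15, 0.20 from P15 to 8 weeks and 1.08 from P6 to 8 weeks, beside medians of -0.01, 0.02 and 0.04 over all genes tested.

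**Figure D2:**
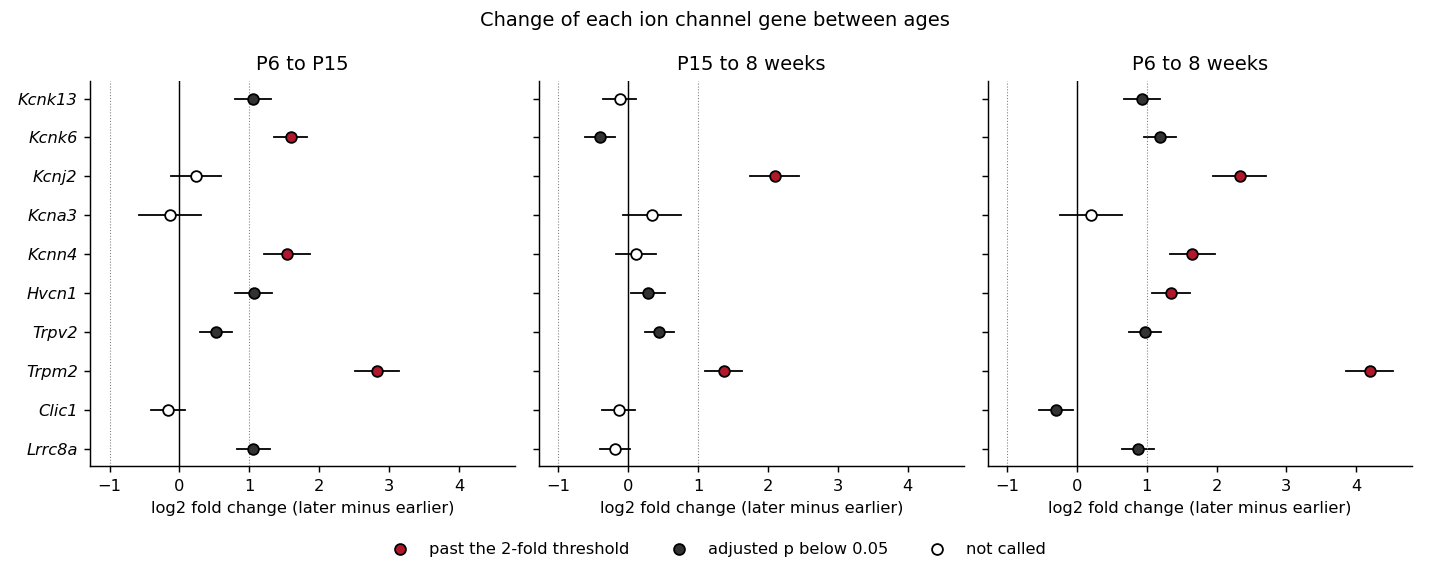
Log2FC of each channel gene (later minus earlier age) with its 95% confidence interval, in 3 comparisons of 34 mice. Red points passed the 2-fold threshold, dark points had an adjusted p below 0.05 and open points were not called, and dotted lines mark 2-fold. Trpm2 changed most, by 4.19 from P6 to 8 weeks, and Kcnj2 moved past 2-fold only in comparisons that end at 8 weeks.

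Among the potassium channels, Kcnk13 (ENSMUSG00000045404, chr12:99964499-100062682) encodes THIK-1, the tandem-pore-domain channel that carries the resting potassium conductance of microglia. Its level was 25.5 CPM in the lowest mouse at P6, 29.9 at the median and 48.1 in the highest. At P15 these values were 34.7, 66.9 and 88.0 CPM, and at 8 weeks they were 51.2, 55.7 and 91.4 CPM. All but 1 of the P15 mice were above every P6 mouse, and the ranges of P15 and 8 weeks overlapped. Kcnk13 rose by a log2FC of 1.05 ± 0.13 (SE) from P6 to P15 (adjusted p = 1.92e-08) and differed by -0.12 ± 0.12 from P15 to 8 weeks (adjusted p = 0.409). The highest adult value belonged to 8-week male 4, and without it and P15 male 1 the 8-week range was 51.2 to 71.2 CPM.

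Kcnk6 (ENSMUSG00000046410, chr7:29221926-29232515) encodes TWIK-2, a relative of THIK-1 through which macrophages lose potassium when the NLRP3 inflammasome is triggered by ATP. Its lowest, median and highest levels were 81.7, 104 and 154 CPM at P6, 216, 312 and 430.1 CPM at P15 and 205, 245 and 261 CPM at 8 weeks. P6 stood below both later ages without overlap, and the 8-week values overlapped only the lower part of the P15 range. Kcnk6 rose by 1.59 ± 0.11 to P15 (adjusted p = 2.19e-13) and then fell by 0.40 ± 0.10 to 8 weeks (adjusted p = 0.00203), the only significant fall among the 10 genes in that interval. Erythroid markers also rose and then fell, with the values given for Kcnn4, and their part in the Kcnk6 values was not tested. The net log2FC from P6 to 8 weeks was 1.19, which did not pass the 2-fold threshold (adjusted p = 0.0579). It passed that threshold when any 1 of 5 mice was left out (P6 male 1, P6 male 5, P15 male 6, 8-week female 1 or 8-week female 6).

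Kcnj2 (ENSMUSG00000041695, chr11:111066164-111076821) encodes Kir2.1, an inward rectifier that stabilises a negative membrane potential. It was at 5.31, 10.1 and 17.6 CPM in the lowest, median and highest mouse at P6, and at 3.88, 12.5 and 16.2 CPM at P15. At 8 weeks it was at 26.5, 53.6 and 61.3 CPM, above every younger mouse. Its log2FC was 0.23 ± 0.18 from P6 to P15 (adjusted p = 0.251) and 2.10 ± 0.17 from P15 to 8 weeks (adjusted p = 1.59e-11). P15 male 1 and 8-week male 4 were the lowest mice of their ages. Without both, the later log2FC was 2.09 and the earlier one was 0.30 with an adjusted p of 0.0485. Ptprc was another gene at its lowest in these 2 mice, and it also rose from P15 to 8 weeks, with a log2FC of 1.07 ± 0.20 (adjusted p = 7.08e-05).

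Kcnn4 (ENSMUSG00000054342, chr7:24370263-24386690) encodes KCa3.1, the intermediate-conductance channel opened by calcium through calmodulin, and was scarce. It was at 1.11, 1.53 and 2.11 CPM at P6, 3.06, 4.36 and 7.53 CPM at P15 and 3.72, 4.73 and 6.55 CPM at 8 weeks. P6 was separate from both later ages, which overlapped each other. It rose by 1.54 ± 0.16 to P15 (adjusted p = 7.91e-10) and by 1.65 ± 0.16 over the whole interval (adjusted p = 8.13e-11). Kcna3 (ENSMUSG00000047959, chr3:107036169-107038070) encodes Kv1.3, the delayed rectifier linked to inflammatory activation. It was counted with only 15 to 112 fragments per mouse, and its medians of 1.62, 1.5 and 1.71 CPM overlapped at all ages. Its log2FC from P6 to 8 weeks was 0.21 with a 95% interval from -0.24 to 0.65, and Kcna3 was not called. The parts of low counts and of spread between mice in this interval were not tested. Summed lymphocyte markers (7 of 7 higher at 8 weeks than at P6) ran from 7.97 to 26 CPM at P6, from 20.9 to 46.3 CPM at P15 and from 21.4 to 59.3 CPM at 8 weeks. T and B lymphocytes are known to express Kcna3 and Kcnn4, and Kcnn4 is also the calcium-activated potassium channel of red cells. Erythroid markers (4 of 4 higher at P15 than at P6, and 4 of 4 lower at 8 weeks than at P15) had median sums of 1829, 4726 and 1779 CPM at the 3 ages, while Kcnn4 differed by 0.12 ± 0.14 from P15 to 8 weeks. Endothelial markers, of which 2 of 4 were higher at P15 than at P6, had median sums of 59.6, 127 and 129 CPM. The part of any of these cells in the values was not tested.

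Hvcn1 (ENSMUSG00000064267, chr5:122206804-122242297) encodes Hv1, the voltage-gated channel that lets protons out while the NADPH oxidase moves electrons across the membrane. Its lowest, median and highest levels were 90.5, 115 and 165 CPM at P6, 142, 232 and 361 CPM at P15 and 263, 289.9 and 425 CPM at 8 weeks. The 8-week mice were all above the P6 mice, while P15 overlapped both. It rose by 1.06 ± 0.13 to P15 (adjusted p = 2.17e-08) and by 1.35 ± 0.13 to 8 weeks (adjusted p = 8.88e-11). The step from P15 to 8 weeks was 0.29 ± 0.12 (adjusted p = 0.0463), and this call was lost when 24 of the 34 mice were left out one at a time. Without P15 male 1 and 8-week male 4 it was 0.22 (adjusted p = 0.108). Hvcn1 shares 1574 of its 3563 exon bases with Tctn1 on the opposite strand, and fragments were counted by strand.

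Members of the oxidase that Hv1 accompanies differed in their changes. Of its 7 genes, 4 were higher at 8 weeks than at P6, 1 was lower and 2 were not called. Ncf4, the p40-phox subunit, rose most, by 1.34 ± 0.12, followed by Ncf1 (p47-phox) at 1.09 ± 0.12 and the catalytic subunit gene Cybb at 0.72 ± 0.16. The small GTPase gene Rac2 fell by 0.53 ± 0.12, and Cyba (0.17 ± 0.12) and Rac1 (-0.12 ± 0.08) were not called. Cybb had a log2FC of 0.02 ± 0.15 from P6 to P15, which was not called, and rose by 0.70 ± 0.15 from P15 to 8 weeks.

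Trpm2 (ENSMUSG00000009292, chr10:77907722-77970563) encodes a calcium-permeable channel opened by ADP-ribose, which forms under oxidative stress. It was at 4.38, 5.93 and 8.45 CPM in the lowest, median and highest mouse at P6, at 28.2, 41.5 and 68.5 CPM at P15 and at 82.4, 112 and 133 CPM at 8 weeks. No 2 of the 3 ages overlapped, which held for no other channel gene. Trpm2 rose by 2.83 ± 0.15 to P15 (adjusted p = 1.83e-16) and by a further 1.37 ± 0.13 to 8 weeks (adjusted p = 4.74e-10), a fold of 18.3 over the whole interval. The second rise passed the 2-fold threshold in edgeR (adjusted p = 0.0204) and not in DESeq2. Leaving out P15 male 1, P15 male 2, 8-week female 4 or 8-week male 6 also removed that call. Neutrophils, which are known to express Trpm2, had summed markers from 15.7 to 69.6 CPM at P6, from 15.3 to 96.7 CPM at P15 and from 29.9 to 201 CPM at 8 weeks, with 3 of 5 tested markers higher at 8 weeks than at P6. S100a8 had medians of 5.05, 7.60 and 23.4 CPM, S100a9 of 7.62, 10.9 and 33.7 CPM and Retnlg of 1.53, 4.85 and 6.12 CPM at the 3 ages. Ngp had medians of 7.45, 11.6 and 3.43 CPM and Camp of 1.02, 1.26 and 0.456 CPM. From P15 to 8 weeks, where Trpm2 rose, 3 of the 5 were higher and 2 were lower. Ly6g, a surface marker of these cells, was at a median of 0.0564, 0.109 and 0.149 CPM at the 3 ages, near the 0.0770 to 0.129 CPM that 3 counts represent in these libraries. The part of neutrophils in the rise was not tested.

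Trpv2 (ENSMUSG00000018507, chr11:62574486-62600515) encodes a cation channel abundant in macrophages that supports phagocytosis. Its lowest, median and highest levels were 44.5, 54.9 and 76.2 CPM at P6, 51.4, 83.6 and 108 CPM at P15 and 86.8, 106 and 158 CPM at 8 weeks. Each age overlapped the next, and P6 and 8 weeks did not overlap. Trpv2 rose by 0.53 ± 0.11 (adjusted p = 0.000146) and then by 0.45 ± 0.10 (adjusted p = 0.000797). Of the 26 other TRP genes 14 were expressed enough to be tested, and between P6 and 8 weeks 6 were higher and 5 lower, with a median log2FC of 0.16. Mcoln1, the lysosomal channel TRPML1, rose by 0.46 ± 0.06, while its relative Mcoln3 fell by 5.54 ± 0.51 and Mcoln2 fell by 3.32 ± 0.29. Mcoln3 was at a mean of 1.82 CPM at P6 and 0.0481 CPM at 8 weeks, below the level of 3 counts and with a median of 0, so that the size of its fall is uncertain, and Mcoln2 at 3.21 and 0.316 CPM. The channel kinase gene Trpm7 did not pass the test (0.34 ± 0.21).

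Calcium entry through the store-operated pathway, in which STIM sensors of the endoplasmic reticulum open ORAI pores, depends on the same membrane potential. Of its 5 genes, 4 were higher at P15 than at P6 and 1 was lower, and from P15 to 8 weeks the 5 had log2FC values between -0.11 and 0.17, which were not called. Orai1, Orai2 and Orai3 rose by 1.06 ± 0.12, 0.98 ± 0.10 and 0.80 ± 0.11 by P15. Stim1 rose by 0.37 ± 0.08 and Stim2 fell by 0.30 ± 0.08. Of the mechanosensitive channel genes, Tmem63a rose by 1.40 ± 0.12 by P15 and Piezo1 passed only the later interval, in which it fell by 0.38 ± 0.11. Piezo2, at means of 1.07 CPM at P6 and 0.180 CPM at 8 weeks, fell by 2.55 ± 0.51. Its 8-week median of 0.111 CPM was at the level of 3 counts, and its highest value there was 0.900 CPM in 8-week male 4. The size of its fall is therefore uncertain.

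Clic1 (ENSMUSG00000007041, chr17:35049966-35058749) encodes a glutathione transferase-like protein that exists in soluble and membrane forms. Its lowest, median and highest levels were 272, 321 and 423 CPM at P6, 153, 307 and 385 CPM at P15 and 214, 253 and 449 CPM at 8 weeks. All ages overlapped. Neither interval passed the test, and the net log2FC from P6 to 8 weeks was -0.30 ± 0.12 (adjusted p = 0.0261). The highest adult value belonged to 8-week male 4, without which and P15 male 1 the net log2FC was -0.40 (adjusted p = 0.00105). With P6 female 6 included it was -0.22 (adjusted p = 0.123), and without 8-week male 5 it was -0.26 (adjusted p = 0.0507). Among 23 other chloride channel and CLIC genes tested of 32, 10 were higher and 7 lower at 8 weeks than at P6, with a median log2FC of 0.24. Ano7 and Clic5 rose by 2.83 ± 0.20 and 2.39 ± 0.31 from low levels of 0.929 and 0.716 CPM at P6. Ttyh3, the most abundant of them per length, fell by 0.74 ± 0.09, and the acid-activated channel gene Tmem206 rose by 0.34 ± 0.10.

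Lrrc8a (ENSMUSG00000007476, chr2:30237715-30263790) encodes the obligatory subunit of the volume-regulated anion channel, which forms by assembling with LRRC8B to LRRC8E. It was at 15.1, 20.7 and 25.6 CPM at P6, 37.2, 41.2 and 64.5 CPM at P15 and 31.2, 36 and 55.0 CPM at 8 weeks. All mice at the later ages were above all mice at P6. Lrrc8a rose by 1.06 ± 0.11 to P15 (adjusted p = 1.68e-09) and differed by -0.18 ± 0.10 from P15 to 8 weeks (adjusted p = 0.142). It shares 2853 of its 4308 exon bases with the gene model Gm28035 on the same strand, where fragments cannot be assigned to one gene. With both counts summed, which was chosen after the data were seen, the log2FC to P15 was 1.17 and that to 8 weeks was 1.02. Its partner genes differed in direction. Lrrc8b fell from a mean of 46.5 CPM at P6 to 19.6 at P15 and 13.3 at 8 weeks, a net log2FC of -1.79 ± 0.14 (adjusted p = 5.09e-13). Lrrc8d rose by 0.43 ± 0.08 (adjusted p = 1.01e-05), and Lrrc8c (-0.26 ± 0.16) was not called. Lrrc8e did not reach the expression filter.

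To ask whether the 2 intervals differed in themselves, the change from P15 to 8 weeks was tested against the change from P6 to P15, a comparison chosen after the data were seen. It was called for 7 of the 10 genes, against 33.4% of all genes. The later change was the smaller one for Kcnk6 (difference -1.99 ± 0.18, adjusted p = 4.37e-10), Trpm2 (-1.46 ± 0.22, adjusted p = 5.59e-06), Kcnn4 (-1.42 ± 0.25), Lrrc8a (-1.24 ± 0.18), Kcnk13 (-1.17 ± 0.20) and Hvcn1 (-0.78 ± 0.21). It was the larger one for Kcnj2 alone (1.86 ± 0.30, adjusted p = 1.33e-05). Trpv2 (-0.08 ± 0.18), Kcna3 and Clic1 were not called. Both changes share the P15 mice, so that an error in their mean moves them in opposite directions.

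**Figure D3:**
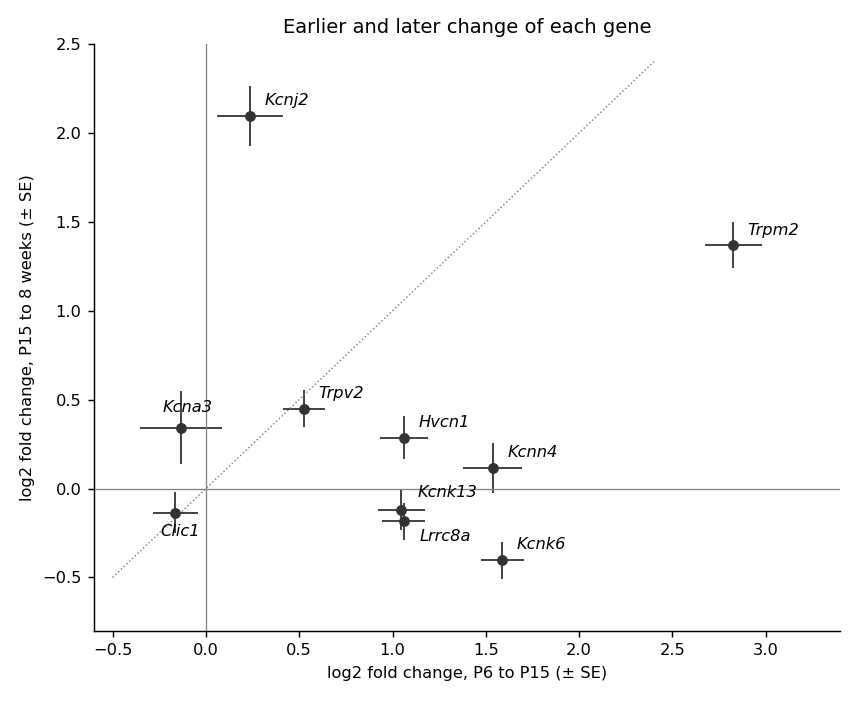
Log2FC from P6 to P15 (horizontal) against log2FC from P15 to 8 weeks (vertical) for each channel gene, with bars of ± SE over 34 mice; the dotted line marks equal change. Kcnj2 lies far above the line, Trpv2 beside it, and Kcnk13, Kcnk6, Kcnn4, Hvcn1 and Lrrc8a lie below the line, Kcnk6 at -0.40 and Hvcn1 at 0.29 vertically.

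Levels were compared between genes as CPM per kb of exon, as a description. Clic1 was first at each age, with 186 ± 30.0 (SD, n = 10) at P6 and 150.1 ± 34.7 (n = 12) at 8 weeks, where its range overlapped that of Hvcn1. Per kb of coding sequence Hvcn1 came first at 8 weeks, with 374 against 373 for Clic1. Per kb of exon, Clic1 was followed at P6 by Hvcn1 (34.1), Kcnk6 (25.8), Trpv2 (12.7), Kcnk13 (10.4) and Lrrc8a (4.88), and then by Kcnj2 (1.98), Kcna3 (0.866), Trpm2 (0.492) and Kcnn4 (0.310). At 8 weeks the order after Clic1 was Hvcn1 (84.8), Kcnk6 (57.7), Trpv2 (24.7), Kcnk13 (19.3), Kcnj2 (9.13), Lrrc8a (8.91), Trpm2 (8.82), Kcna3 (0.986) and Kcnn4 (0.979). The ranges of neighbours overlapped in 5 of 9 pairs at P6, in 7 at P15 and in 5 at 8 weeks, and in adults the ranges of Kcnj2 and Trpm2 overlapped. Among 17600 tested genes with a known length, Trpm2 moved from place 14142 at P6 to 4988 at 8 weeks, Kcnj2 from 10561 to 4861 and Hvcn1 from 1341 to 465. The place of Lrrc8a depends on the length used. Divided by the 1455 exon bases that it does not share, its level was 14.5 CPM per kb at P6 and 26.4 at 8 weeks, which exceeded the means of Trpv2 and Kcnk13 at both ages and would put it in place 4.

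**Figure D4:**
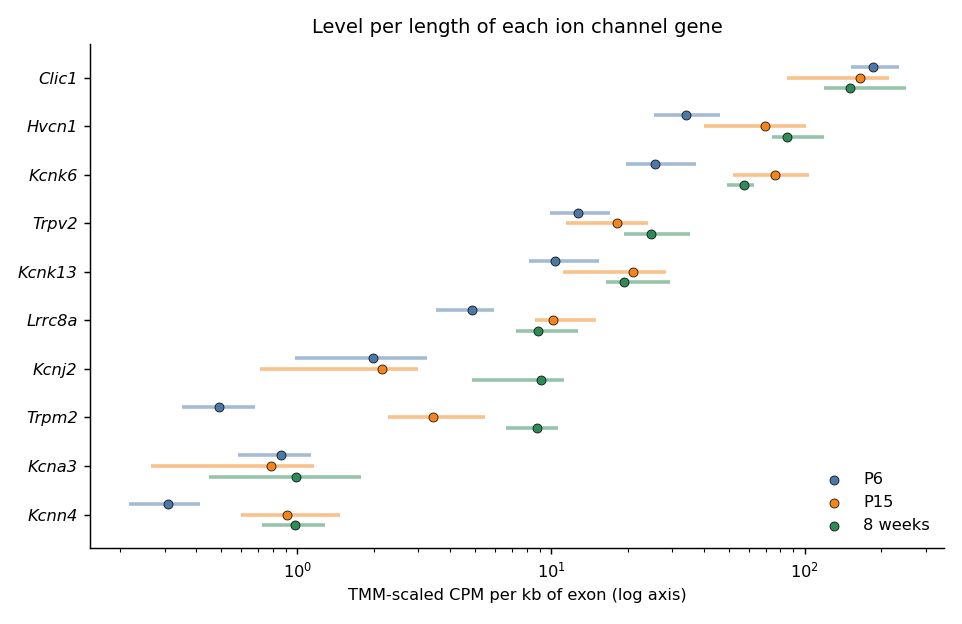
Mean TMM-scaled CPM per kb of exon of each channel gene at each age (points, log axis) with the range over mice (bars). Clic1 has the highest mean at all ages by exon length, and Trpm2 rose from 0.492 at P6 to 8.82 at 8 weeks; Lrrc8a is drawn over all its exon bases, shared ones included.

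The 5 potassium channels were set within all 77 potassium channel pore subunit genes. Kcnk6 was first per length at each age and made up 19.6 ± 5.71% (SD) of the summed level at P6, 27.4 ± 9.39% at P15 and 26.3 ± 4.05% at 8 weeks. Kcnk13 was in place 3 at P6 and in place 4 afterwards, at 7.89 ± 2.41% and, at 8 weeks, 8.78 ± 1.86%. Kcnj2 moved from place 16 to place 7 and from 1.52 ± 0.65% to 4.20 ± 1.17%. Together the 5 made up 29.9 ± 8.81% at P6 and 40.2 ± 6.07% at 8 weeks. Of the 72 other pore genes, 61 were tested. They were higher at P15 than at P6 in 24 cases and lower in 13, and from P15 to 8 weeks 27 were lower and the other 34 not called, with a median log2FC of -0.63. Kcnj10 and Kcnk1, the most abundant of them per length, rose by 2.11 ± 0.22 and 2.12 ± 0.32 to P15. Kcng4, a silent modifier subunit, rose by 6.10 ± 0.43 from a mean of 0.183 CPM, and Kcnj6, a G protein-gated neuronal channel, fell by 5.13 ± 0.54 between P6 and 8 weeks. Kcnj10 is known from astrocytes and oligodendrocytes. Astrocyte markers, of which 3 of 5 were higher at P15, summed to 329 to 861 CPM at P6, 397 to 2622 CPM at P15 and 836 to 2451 CPM at 8 weeks. Oligodendrocyte lineage markers summed to 234 to 597 CPM, 739 to 2882 CPM and 299 to 1569 CPM. Of these 6 markers, 3 were higher and 2 lower at P15 than at P6, and 3 were higher and 3 lower at 8 weeks than at P6. Mbp alone had a median of 911 CPM at P15. The part of either cell type in the summed pore level was not tested.

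Of 16 auxiliary potassium channel subunits 12 were tested, and at 8 weeks 5 were lower than at P6 and 7 were not called. Kcnmb2 fell by 4.72 ± 0.76, from a mean of 0.485 CPM to one below the level of 3 counts. Its median at 8 weeks was 0, so that the size of its fall is uncertain. Kcne1l fell by 2.45 ± 0.29, while Kcnip3, the most abundant per length, was not called (0.13 ± 0.16). Sodium pump genes, which restore the potassium gradient that these channels use, were tested in 6 of 7 cases. At 8 weeks 2 were higher than at P6, among them the glial subunit Atp1b2 (2.10 ± 0.30), and 3 were lower.

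No channel gene was called between males and females at any age by edgeR, limma-voom or DESeq2. Of all genes tested, the sexes differed in 0.0511% at the first age, 0.0681% at the second and 0.114% in adults. The male minus female log2FC of the 10 genes lay between -0.03 and 0.77 at P6, between -0.53 and 0.34 at P15 and between -0.24 and 0.20 at 8 weeks, with SEs of 0.15 to 0.32. At an unadjusted p below 0.05, only Kcnj2 at P6 differed among the 30 comparisons, with 7.58 ± 1.86 CPM (SD) in 4 females and 12.9 ± 3.05 CPM in 6 males and ranges that did not overlap (log2FC 0.77 ± 0.27, edgeR adjusted p = 0.696). The change from P6 to 8 weeks did not differ between sexes for any channel gene, nor for any gene tested (0%), in edgeR, although 898 genes had an unadjusted p below 0.05. Of the 10, Kcnj2 alone had an unadjusted p below 0.05 (-0.77 ± 0.35, adjusted p = 0.858).

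The genes of most similar pattern were found by the smallest root mean square (RMS) difference between log2 CPM over the 34 mice, each gene centred on its own mean, among 14787 protein-coding genes. Among the genes nearest to Hvcn1 was Inpp5d, which encodes the phosphatase SHIP1 (RMS difference of 0.12 against its own spread of 0.62). Trpv2 was nearest to Shisa5 and the phagosomal metal transporter gene Slc11a1 (0.11 and 0.11, own spread 0.46). Kcnk13 was nearest to Unc93b1, which carries Toll-like receptors to endosomes, and to Mgat1 (0.11 and 0.12, own spread 0.53). Kcnk6 was nearest to Tal1 and Liph (0.13 and 0.17, own spread 0.69), and Lrrc8a to Paqr7 and Mgll (0.17 and 0.18, own spread 0.50). Clic1 was nearest to Actb and Capzb, which encode actin and a capping protein (0.09 and 0.11, own spread 0.31). Trpm2 was nearest to Lrrc3 and Capn3 (0.26 and 0.36, own spread 1.71), and Kcnn4 to Eef2k and Zfp467 (0.25 and 0.25, own spread 0.78). Kcnj2 had Stk26 and Zmat1 at 0.41 and 0.42 against a spread of 1.14. For Kcna3 the nearest genes, Dicer1 and Stx17 at 0.32 and 0.32, lay far off relative to its spread of 0.51, at the low counts given above. All 34 mice enter both genes of a pair, so these differences include the shared change with age and shared features of each library.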

How the data were processed

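Strand-specific paired-end mRNA libraries (1 per mouse) were aligned by the authors with STAR to GRCm38, and featureCounts gave the deposited table of raw counts per gene. The annotation release is not given in the sources used here. Gene names, lengths and coordinates were taken from GENCODE M21 (55141 of 55401 identifiers matched). All 34 mice were fitted in edgeR 4.0.16 (R 4.3.3, quasi-likelihood, robust, TMM) with 6 age-by-sex means, averaging the sexes within an age. A gene was tested where 5 or more mice reached 0.5 CPM (17612 genes). A call needed a Benjamini-Hochberg adjusted p below 0.05 over all genes, and the 2-fold threshold used glmTreat with the same adjustment. SE is the log2FC divided by the root of its F statistic. The fit was also run on simulated counts with the same spread for all genes, as a check of the code, and no result rests on that run. Alternatives were limma-voom (limma 3.58.1), DESeq2 1.42.0, its size factors, library size alone, other filters, all 35 mice, age without sex, the compared ages alone, a replicate block and each mouse left out. Replicate numbers name different animals and do not pair them. No 2 libraries were copies (chi-square per gene at least 12.8 over 81 pairs within groups). Figures were drawn with matplotlib 3.10.9.

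Members and gene lists were chosen with earlier results of these data known. Beyond the 10 members, the text names the 2 genes of highest level per length and the 2 of largest change past 2-fold in each channel list, all genes of the LRRC8, store-operated entry and oxidase lists, and the 2 genes of most similar pattern to each member. Some genes that this rule selects are not reported here. Ptprc, Spi1, Gm28035 and the single neutrophil markers were named after their values were seen.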

Additional observations from a re-analysis of the deposited data

Results flagged for a closer look

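Among 60 checks (10 genes in 6 age-by-sex groups), 3 found a mouse far from the rest of its group, and all 3 were 8-week male 4. Chance flags about 1 group in 20, so that the number of flags found is no more than chance would give. Kcnj2 was at 26.5 CPM in this mouse and between 49.4 and 61.3 CPM in the other 8-week males. Kcnn4 was at 6.49 CPM against 4.25 to 4.86 CPM, and Hvcn1 was at 425 CPM against 265 to 304 CPM. In this library, relative to its group, long genes (at least 7561 exon bases) were lower than short ones (at most 3250) by 0.65 log2 units. Kcnj2, Kcnn4 and Hvcn1 have 5444, 5115 and 3563 exon bases, between these limits. In this mouse Kcnj2 was low while Kcnn4 and Hvcn1 were high. The part of gene length in these 3 values was not tested.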

How the results depend on the processing

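Most calls of the 10 genes kept their direction and their side of the threshold under all alternatives run. The exceptions follow, and their cause was not tested except where fewer mice entered the fit. With all 35 mice, 0 of the 10 genes were lower at 8 weeks than at P6 (Clic1, -0.22), and the difference between intervals for Clic1 turned to -0.042. With library size alone, 1 gene (Clic1) was lower at P15 than at P6, and the difference between intervals for Trpv2 turned to 0.040. DESeq2 called 1 gene past 2-fold from P15 to 8 weeks (Kcnj2). Without P15 male 1 and 8-week male 4 (added once values were known), the Clic1 difference was -0.025, and Kcnj2 was also called from P6 to P15 (0.30, edgeR adjusted p = 0.0485). By coding length, 4 of 10 genes kept their place in the order of mean levels over all 34 mice (by age, 5 at P6, 2 at 8 weeks and 10 at P15). With each mouse left out in turn, the genes called from P15 to 8 weeks numbered 3 to 4 higher, 1 to 2 lower and 1 to 2 past 2-fold. From P6 to 8 weeks they numbered 0 to 1 lower and 4 to 5 past 2-fold, and the Clic1 difference between intervals ran from -0.086 to 0.084. Without 8-week female 1, Lrrc8a was also lower at 8 weeks than at P15 (-0.26, edgeR adjusted p = 0.0244). Hvcn1 was no longer called from P15 to 8 weeks with all 35 mice, with DESeq2 size factors, with no filter, with age without sex or without the 2 libraries named above, nor without 24 of the 34 mice in turn. The Clic1 call from P6 to 8 weeks was lost without 8-week male 5. Kcnk6 passed 2-fold from P6 to 8 weeks with all 35 mice, with the compared ages alone and without any 1 of the 5 mice named in the text.

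The replicate block left the counts from P6 to 8 weeks at 8 higher, 1 lower and 4 past 2-fold, with Trpm2 at 4.17 and Kcnj2 at 2.32. Same-numbered mice are different animals. Their deviations correlated between -0.54 and 0.69 over 80 pairs, 27 of them over 0.1, and 2 of 34 mice lay closest to their own number. Depth limits Kcna3 most, with 15 fragments in the lowest mouse.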
